A study of Mus musculus with 12 samples.

Results

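The response of lung to a treatment labelled CRE was measured in Cc10-Cre mice, which carry the Cre recombinase under the promoter of the club cell gene Cc10 and are labelled RhoAWT, without the floxed allele of the other genotype. The 3 libraries titled Cc10-Cre+CRE were set against the 3 titled Cc10-Cre+PBS, so the comparison holds 6 of the 12 libraries of the series, with every gene of the count table. The other 6 come from Cc10-Cre;Rhoafl/fl mice (RhoACKO), in which Cre is meant to delete the small GTPase gene *Rhoa* in Cc10-expressing cells, given PBS or CRE. They enter the estimate of spread and the test of whether a response differed between the genotypes. Every group carries the Cre transgene, all libraries are whole-lung poly(A) RNA of a single labelled batch, and the labels give neither the age of the mice nor the dose and schedule. What CRE stands for is not in the labels, so the name is used as given and is distinct from Cre. Nothing in the labels says that the 3 libraries of a group are separate mice, so p-values measure the spread between these libraries.

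The title of the series names interstitial macrophages, the barrier of the airway and allergic inflammation. In such inflammation, epithelial alarmins such as interleukin 33 act on type 2 lymphocytes, whose cytokines interleukin 4, 5 and 13 signal through the factor STAT6 or drive eosinophils. Interleukin 13 turns secretory cells of the airway towards mucus, and interleukin 4 and 13 turn macrophages towards a program with arginase, chitinase-like and resistin-like proteins. Chemokines then bring eosinophils, monocytes and lymphocytes into the tissue, and matrix and vessels are remodelled.

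Of 17473 tested genes, 9959 (57.0%) were called in either direction at an adjusted p below 0.05 in edgeR's quasi-likelihood test, with 5004 (28.6%) higher and 4955 (28.4%) lower with CRE. These shares are the background for every count of list members below. The median log2 fold change of all tested genes was 0.01. In 9805 of the 9959 called genes (98.5%) the libraries of the groups did not overlap, against 68.4% of all tested genes. Calls and overlap are read from the same values. Library totals lay between 16288301 and 19758180 counts. Principal component 1 of the 6 libraries held 80.6% of the variance, with scores of -69.5, -70.4 and -73.8 with PBS and 71.3, 77.7 and 64.7 with CRE. By Y-linked and *Xist* counts the PBS libraries were all male, while CRE replicate 1 was male and replicates 2 and 3 were female. With sex as a covariate 7933 genes were called. The male libraries hold only replicate 1 of the CRE libraries compared here. Values given below for male libraries only therefore rest on that library alone with CRE. Defining lung markers were present in every library, as the surfactant gene *Sftpc* was at 15755, 14571 and 13922 CPM with PBS and 9120.4, 8650.5 and 10157 CPM with CRE. CPM are counts scaled to a library total of 1000000. In whole lung, fewer cells of a type and less RNA per cell cannot be told apart.

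**Figure D1:**
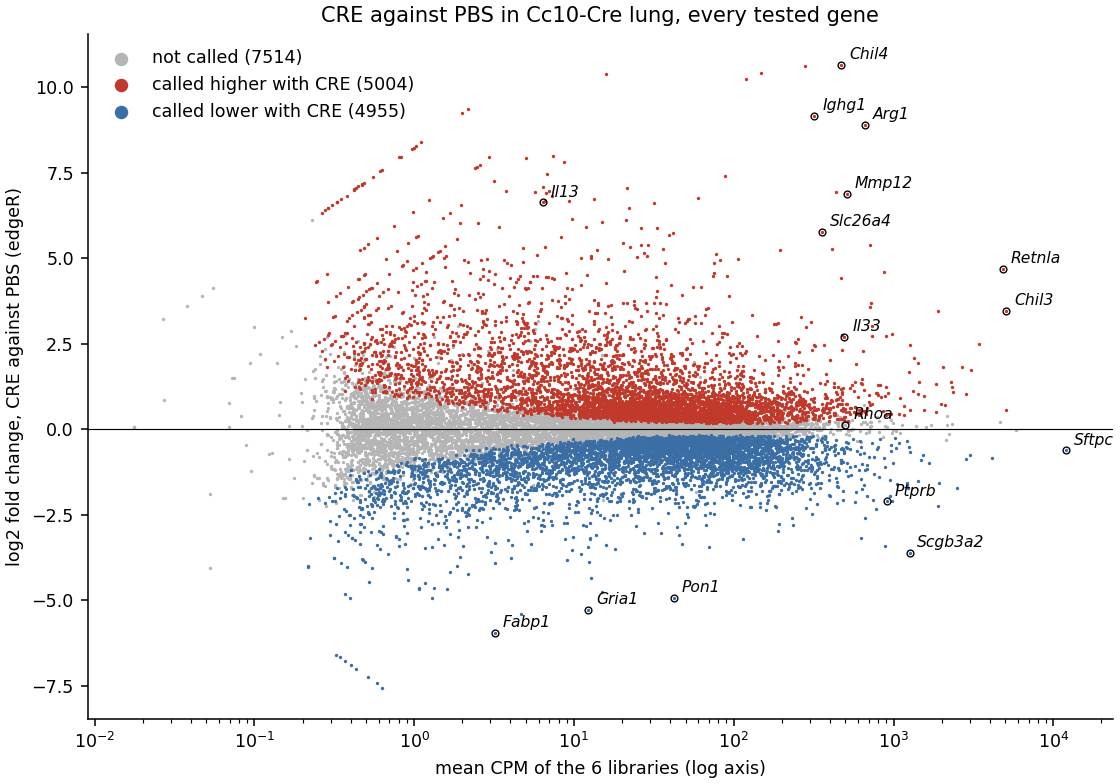
Each point is 1 of the 17473 tested genes, with its mean CPM over the 6 libraries on a log axis and its log2 fold change, CRE against PBS, on the other axis. Red points are the 5004 genes called higher and blue points the 4955 called lower, and circles mark named genes. The outermost straight rows at low CPM are genes with no count in 1 of the groups, whose fitted fold change depends on the prior count.

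The response was uneven at its extremes. Rises of at least 4-fold were called for 902 genes and falls of that size for 378, and at 16-fold or more the counts were 209 and 32. Between 1.5-fold and 2-fold they were 1336 and 1523. The 902 genes took 0.966% ± 0.0507 of all counts with PBS and 8.33% ± 0.542 with CRE (SD, n = 3), which describes genes chosen by these same values. The surfactant genes *Sftpa1*, *Sftpb*, *Sftpc* and *Sftpd* together took 2.38% ± 0.118 with PBS and 2.01% ± 0.120 with CRE.

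The largest rises came from near zero. *Ccl24* (ENSMUSG00000004814, chromosome 5, 135569937 to 135573049), which encodes an eosinophil-attracting chemokine, was at 0.307, 0.152 and 0.649 CPM with PBS and 653, 616 and 400.2 CPM with CRE (log2 10.61 ± 0.66, adjusted p = 1.31e-06). *Chil4* (ENSMUSG00000063779, chromosome 3, 106201490 to 106219507), a chitinase-like gene, was at 1.02, 0 and 0.767 CPM with PBS and 1261, 751 and 807 CPM with CRE (log2 10.66 ± 0.63, adjusted p = 9.08e-07). *Rnase2a*, a ribonuclease gene of the eosinophil-associated family, was at 0.307, 0.253 and 0 CPM with PBS and 293, 196 and 226 CPM with CRE (log2 10.25 ± 0.37, adjusted p = 3.72e-08). In each of these genes every CRE library stood at 196 CPM or more and every PBS library at 1.02 CPM or less. Their log2 fold changes rest on very few PBS counts, so *Ccl24* came to 11.24 without PBS replicate 3, and *Chil4* to 11.36 without PBS replicate 1 and 10.05 without PBS replicate 2. *Arg1* (ENSMUSG00000019987, chromosome 10, 24915221 to 24927484), which encodes arginase, was at 2.61, 3.14 and 2.72 CPM with PBS and 1304, 1647 and 1000.3 CPM with CRE (log2 8.89 ± 0.86, adjusted p = 1.86e-05). *Il13ra2*, the decoy receptor of interleukin 13, was at 0.153, 0 and 0 CPM with PBS and 17.6, 15.5 and 11.1 CPM with CRE (log2 7.98 ± 0.81, adjusted p = 2.27e-05), or 11.11 without PBS replicate 1. The mast cell protease gene *Mcpt1* had no count in any PBS library and 7.24, 3.24 and 2.47 CPM with CRE, at least 26.9-fold higher against a floor of 3 counts per library. Several of the 12 largest rises were of genes known from neurons or development. The homeobox genes *Msx3* and *Phox2a* reached 21.8, 20.3 and 9.32 CPM and 5.10, 6.87 and 2.42 CPM with CRE, from at most 0.102 and 0.0511 CPM with PBS, and 9.48 was the log2 value of *Phox2a* without PBS replicate 1, against 7.64 with it. The neuropeptide gene *Npy* and the vesicle gene *Rph3a* had no PBS count and were at least 12.8-fold and 7.85-fold higher. The Notch-related ligand gene *Dlk1* was at 2.89, 9.18 and 2.78 CPM with CRE, where replicate 2 stood above the other two, against at most 0.0590 CPM with PBS (log2 7.68 ± 1.39, adjusted p = 0.000713), and came to 6.39 with a sex covariate, 6.93 in male libraries only, 9.54 without PBS replicate 3 and 6.90 without CRE replicate 2.

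Among the 12 largest falls, *Pon1* (ENSMUSG00000002588, chromosome 6, 5168090 to 5193946), a paraoxonase gene of club cells, was at 93.6, 73.6 and 78.8 CPM with PBS and 2.33, 3.02 and 2.52 CPM with CRE (log2 -4.92 ± 0.26, adjusted p = 3.78e-07). *Gria1*, which encodes a subunit of AMPA glutamate receptors, was at 23.9, 20.2 and 27.6 CPM with PBS and 0.675, 0.330 and 0.773 CPM with CRE (log2 -5.28 ± 0.80, adjusted p = 0.000228). *Fabp1*, a fatty acid-binding protein gene, was at 6.39, 5.67 and 6.85 CPM with PBS and 0.0614, 0.165 and 0.0515 CPM with CRE (log2 -5.95 ± 0.57, adjusted p = 1.69e-05), and came to -5.30 with a sex covariate and -6.60 without CRE replicate 2. Each of these fell in all 3 CRE libraries to a level far under the lowest PBS library. *Bex2* fell as well (log2 -4.77 ± 0.32, adjusted p = 2.39e-06), and it has a near-identical copy, so its value is uncertain. *Olfr456*, *Pnpla5* and *Lipf*, an olfactory receptor gene, a phospholipase-like gene and the gastric lipase gene, had no count in any CRE library and were at least 7.52-fold, 6.94-fold and 6.16-fold lower. The albumin gene *Alb* spread over 0.716, 3.09 and 23.6 CPM with PBS alone. Its fall (log2 -5.40 ± 1.69, adjusted p = 0.0167) lost its call without PBS replicate 3 (adjusted p = 0.116), without CRE replicate 1 (0.0502) or 2 (0.0613), and in male libraries only (0.0706), with log2 values from -6.68 with sex as a covariate to -3.15 without PBS replicate 3.

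Most genes on the lists of alarmins, type 2 cytokines and their receptors rose. Of 10 tested genes for alarmins and their receptors, 6 rose and 1 fell (median log2 1.26, against 0.01 for all genes). None fell without PBS replicate 1 or 2, without CRE replicate 2 or 3, or with sex as a covariate. *Il33* (ENSMUSG00000024810, chromosome 19, 29925114 to 29960718), whose product is released from damaged epithelium, was at 148, 131 and 121 CPM with PBS and 883, 788 and 882 CPM with CRE (log2 2.71 ± 0.18, adjusted p = 2.56e-06). The lowest CRE library lay far above the highest PBS library. *Il1rl1*, which encodes the receptor of interleukin 33, was at 7.42, 9.01 and 6.32 CPM with PBS and 38.3, 44.0 and 30.5 CPM with CRE (log2 2.34 ± 0.26, adjusted p = 3.69e-05). *Tslp*, another alarmin gene, was at 2.15, 1.82 and 2.48 CPM with PBS and 2.09, 0.935 and 1.39 CPM with CRE and did not pass (adjusted p = 0.236). Its log2 value was -0.51 ± 0.35, or 0.01 in male libraries only. *Il25* had no count in any of the 6 libraries.

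Of 12 tested type 2 cytokine and receptor genes, 11 rose and none fell (median log2 1.55). *Il13* (ENSMUSG00000020383, chromosome 11, 53631324 to 53634702) was at 0.102, 0.101 and 0.177 CPM with PBS and 12, 16.4 and 9.74 CPM with CRE (log2 6.63 ± 0.54, adjusted p = 8.55e-06). *Il5*, which overlaps another gene on the opposite strand, was at 0.0511, 0.101 and 0.0590 CPM with PBS and 1.72, 0.660 and 1.03 CPM with CRE (log2 3.91 ± 0.68, adjusted p = 0.000534), or 4.55 with a sex covariate and 4.52 in male libraries only. *Il4* was at 1.59, 2.02 and 2.77 CPM with PBS and 3.93, 4.95 and 2.73 CPM with CRE (log2 0.90 ± 0.32, adjusted p = 0.033), and its groups overlapped, since CRE replicate 3 lay below PBS replicate 3. The *Il4* call was lost without PBS replicate 1 (adjusted p = 0.123) or 2 (0.0883), without CRE replicate 1 (0.0746) or 2 (0.129), and in male libraries only (0.0557). *Il4ra*, which encodes the receptor chain shared by interleukin 4 and 13, was at 157, 157 and 149 CPM with PBS and 324, 309.7 and 310.3 CPM with CRE (log2 1.07 ± 0.14, adjusted p = 0.000117). *Il9*, *Il3* and *Il31* had no count in any of the 6 libraries.

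Downstream, 8 of 17 JAK, STAT and SOCS genes rose and 4 fell. The feedback inhibitors led the rises, with *Socs1* at 4.4, 6.12 and 4.01 CPM with PBS and 50.6, 61.5 and 29.8 CPM with CRE (log2 3.31 ± 0.31, adjusted p = 1.61e-05) and *Socs3* at log2 1.84 ± 0.25. Other members of the same inhibitor family went the other way, *Socs7* at log2 -0.81 ± 0.14 and *Socs5* at -0.43 ± 0.10. The signal transducer gene *Stat6* was slightly lower (log2 -0.26 ± 0.09, adjusted p = 0.0331), a call that was lost without any 1 of the PBS libraries (adjusted p = 0.102, 0.0538 and 0.0616), without CRE replicate 1 (0.0958) or 3 (0.0856) and with sex as a covariate (0.0829).

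RefSeq promoter windows of 300 bases (GRCm38.p6, 250 before to 50 after the start) are shown for *Retnla* (chr16:48842359-48842658 on the forward strand) and *Pdcd1lg2* (chr19:29410669-29410968 on the forward strand), genes of alternative macrophage activation that rose. They hold the letters of the STAT6 motif, TTCNNNNGAA, and capitals mark the match, whose first base is at -145 and -82 from the start. The windows of *Chil3* (chr3:106167515-106167814 on the reverse strand) and *Chil4* (chr3:106219430-106219729 on the reverse strand) are shown for comparison, since these neighbours rose to a different extent, and they do not hold these letters.
Retnla: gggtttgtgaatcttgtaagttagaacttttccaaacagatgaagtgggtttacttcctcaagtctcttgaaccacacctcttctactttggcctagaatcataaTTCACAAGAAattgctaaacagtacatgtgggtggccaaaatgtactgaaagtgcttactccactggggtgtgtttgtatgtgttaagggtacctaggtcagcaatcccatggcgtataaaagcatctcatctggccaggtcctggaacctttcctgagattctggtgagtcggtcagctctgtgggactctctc
Pdcd1lg2: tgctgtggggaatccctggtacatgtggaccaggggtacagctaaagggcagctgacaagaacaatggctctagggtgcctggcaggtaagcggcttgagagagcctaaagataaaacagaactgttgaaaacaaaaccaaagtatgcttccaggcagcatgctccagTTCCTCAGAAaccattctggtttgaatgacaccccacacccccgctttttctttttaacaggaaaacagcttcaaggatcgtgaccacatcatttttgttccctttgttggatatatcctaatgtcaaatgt
Chil3: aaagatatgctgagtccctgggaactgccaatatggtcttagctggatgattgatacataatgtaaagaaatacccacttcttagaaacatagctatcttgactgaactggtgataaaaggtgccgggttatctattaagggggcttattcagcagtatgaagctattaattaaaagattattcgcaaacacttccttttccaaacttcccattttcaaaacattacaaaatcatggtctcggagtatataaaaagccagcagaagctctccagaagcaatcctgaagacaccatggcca
Chil4: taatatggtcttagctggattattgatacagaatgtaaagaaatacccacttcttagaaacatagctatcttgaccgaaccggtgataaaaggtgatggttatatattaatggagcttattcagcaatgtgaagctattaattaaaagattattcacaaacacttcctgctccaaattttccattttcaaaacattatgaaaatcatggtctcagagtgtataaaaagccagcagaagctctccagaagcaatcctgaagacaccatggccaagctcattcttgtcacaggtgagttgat
The motif reads the same on both strands, and other spacings of TTC and GAA were not searched. It was found in the windows of 4 of the 11 alternative activation genes with a window (36.4%), *Retnla*, *Pdcd1lg2*, *Ccl17* and *Clec7a*, against 6.67% of the 12434 tested genes with one. It was in none of the 9 windows among the 12 largest rises and in 1 of 14 windows of CC chemokine genes. Among other lists, it was in 3 of 19 windows of ciliated cell markers (15.8%), in 1 of 14 of cell cycle genes and in none of DNA replication genes. The windows of *Chil3* and *Chil4* share 251 of 271 aligned bases (92.6%). *Chil3* (ENSMUSG00000040809, chromosome 3, 106147554 to 106167564) was at 781, 982 and 846 CPM with PBS and 9836, 8510.5 and 9498 CPM with CRE (log2 3.45 ± 0.16, adjusted p = 2.22e-07), so it was already abundant with PBS, while *Chil4* was at 0 to 1.02 CPM there. A match is a description of letters and not a measured site.

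CC chemokine genes had the largest median of the 81 lists, at log2 4.62. Of 18 tested, 14 rose and none fell. *Ccl8* was at 6.39, 9.41 and 5.61 CPM with PBS and 954, 879.6 and 759 CPM with CRE (log2 6.95 ± 0.57, adjusted p = 8.23e-06). *Ccl7*, a monocyte attractant, was at 1.33, 1.37 and 0.590 CPM with PBS and 70.4, 78.7 and 45.7 CPM with CRE (log2 5.89 ± 0.51, adjusted p = 1.07e-05). *Ccl11*, the eotaxin that shares its receptor with *Ccl24*, was at 5.68, 6.23 and 3.66 CPM with PBS and 172, 167 and 136 CPM with CRE (log2 4.96 ± 0.23, adjusted p = 2.22e-07). CRE replicate 3 was the lowest of the CRE libraries for each of these, and still lay far above every PBS library. Of 16 other chemokine genes, 11 rose and 3 fell. The rises were led by the neutrophil attractants *Cxcl3* (log2 5.32 ± 0.53) and *Cxcl5* (5.07 ± 0.51) and by the B cell attractant *Cxcl13*, at 4.14, 5.36 and 3.19 CPM with PBS and 78.3, 86.3 and 66.1 CPM with CRE (log2 4.21 ± 0.50, adjusted p = 5.86e-05). *Cx3cl1* and *Cxcl14*, made by resting tissue, fell (log2 -1.07 ± 0.15 and -0.94 ± 0.15).

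Among 23 chemokine receptor genes, 12 rose and 4 fell. *Ccr3*, the eotaxin receptor of eosinophils, was at 0.818, 0.354 and 0.236 CPM with PBS and 9.58, 15.6 and 6.64 CPM with CRE (log2 4.48 ± 0.48, adjusted p = 3.08e-05), or 5.14 without PBS replicate 1. *Ccr8*, a receptor of type 2 and regulatory T cells, rose from at most 0.885 CPM to 8.84, 6.38 and 5.00 CPM (log2 3.16 ± 0.53, adjusted p = 0.000446). The scavenging receptor genes *Ackr4* and *Ackr2*, which remove chemokines, fell (log2 -1.54 ± 0.23 and -0.66 ± 0.16).

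Eosinophil markers were at 117 to 133 CPM with PBS and 255 to 359 CPM with CRE in sum, with 6 of 8 higher. *Prg2*, the major basic protein of eosinophil granules, was at 0.256, 0.304 and 0.177 CPM with PBS and 22.9, 35.8 and 20.2 CPM with CRE (log2 6.72 ± 0.69, adjusted p = 2.51e-05). *Alox15*, a lipoxygenase gene, was at 1.94, 1.72 and 0.944 CPM with PBS and 71.3, 108 and 65.2 CPM with CRE (log2 5.74 ± 0.27, adjusted p = 2.22e-07). *Ear1*, a ribonuclease gene on the same list, moved the opposite way, at 20.7, 27.4 and 25.3 CPM with PBS and 2.64, 4.4 and 1.34 CPM with CRE (log2 -3.10 ± 0.33, adjusted p = 3.08e-05). Of 10 neutrophil markers 8 rose and none fell, among them *Retnlg* at 7.01, 5.57 and 5.37 CPM with PBS and 93.1, 148 and 73.8 CPM with CRE (log2 4.16 ± 0.46, adjusted p = 3.60e-05) and the lactoferrin gene *Ltf* (log2 2.23 ± 0.41). CRE replicate 2 was the highest CRE library for *Prg2*, *Alox15*, *Retnlg* and *Ltf*. Mast cell and basophil markers split, 3 of 10 up and 3 down, shares near the background. The proteases of mucosal mast cells, *Mcpt1* and *Mcpt2*, rose from at most 1 count per library, and the histamine-forming enzyme gene *Hdc* rose (log2 1.71 ± 0.22, adjusted p = 8.29e-05). *Cpa3*, a protease of mast cells, was at 5.42, 5.11 and 5.37 CPM with PBS and 1.41, 2.25 and 2.78 CPM with CRE (log2 -1.25 ± 0.29, adjusted p = 0.00324, or -1.85 in male libraries only), and *Kit* and *Gata2* also fell (log2 -0.57 ± 0.13 and -1.34 ± 0.22). Mean levels of *Kit* and *Gata2* with PBS were 231 and 197 CPM, far above the 5.30 CPM of *Cpa3*. Which cells held them was not tested. Monocyte markers were 3 up and 3 down of 9, shares near the background. The count of rises was 5 with only the 6 Cc10-Cre libraries, with no low-count filter, with DESeq2 and with limma-voom. It was also 5 without CKO_CRE replicate 1 or without CKO_CRE replicate 2. *Ccr2*, *Plac8* and *Fcgr4* rose (log2 1.40 ± 0.19, 1.43 ± 0.25 and 0.99 ± 0.30), and *Fcgr4*, an IgG receptor gene, lost its call without CRE replicate 2 (adjusted p = 0.0631) and with sex as a covariate (0.0906). *Treml4* and *Ace* fell (log2 -1.27 ± 0.30, or -1.86 in male libraries only, and -1.0 ± 0.17), and endothelium also makes *Ace*.

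Most markers of interstitial macrophages, which lie in the tissue between airway and alveoli, rose. Of 16 interstitial macrophage markers 13 rose and 3 fell (median log2 2.92). *C1qa*, a complement gene of these cells, was at 53.5, 75.0 and 62.2 CPM with PBS and 573, 538 and 517 CPM with CRE (log2 3.13 ± 0.29, adjusted p = 1.43e-05). *Trem2*, a lipid receptor gene, was at 4.55, 7.09 and 6.14 CPM with PBS and 89.2, 89.5 and 87.2 CPM with CRE (log2 3.94 ± 0.43, adjusted p = 3.58e-05), with almost equal levels in the 3 CRE libraries. *Lyve1* and *Tmem119* fell (log2 -1.26 ± 0.22 and -1.10 ± 0.17). Of 11 alveolar macrophage markers 5 fell and 2 rose (median log2 -0.25). *Marco*, a scavenger receptor gene, was at 24.6, 34.6 and 39.8 CPM with PBS and 2.33, 4.89 and 1.34 CPM with CRE (log2 -3.50 ± 0.61, adjusted p = 0.000553), or -4.13 without CRE replicate 2. *Cidec*, a lipid droplet gene, was at 19.7, 20.4 and 21.3 CPM with PBS and 2.09, 1.92 and 0.824 CPM with CRE (log2 -3.64 ± 0.46, adjusted p = 7.62e-05). *Itgax*, which dendritic cells and other macrophages share, was at 72.5, 90.9 and 82.8 CPM with PBS and 364, 362 and 342 CPM with CRE (log2 2.15 ± 0.23, adjusted p = 3.08e-05).

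Genes of alternative macrophage activation rose in 17 of 18 cases (median log2 2.59). *Retnla* (ENSMUSG00000061100, chromosome 16, 48842551 to 48844461), a resistin-like gene, was at 355, 448 and 316 CPM with PBS and 10863, 9538 and 7549 CPM with CRE (log2 4.68 ± 0.25, adjusted p = 3.78e-07). CRE replicate 3 was the lowest there, yet far above any PBS library. Genes of classical activation rose too, 9 of 12 (median log2 2.04). *Nos2*, which makes nitric oxide from arginine, was at 6.70, 4.4 and 4.13 CPM with PBS and 169, 131 and 133 CPM with CRE (log2 4.86 ± 0.57, adjusted p = 5.01e-05), and *Il6* was at 0.205, 0.202 and 0.295 CPM with PBS and 5.03, 5.17 and 5.36 CPM with CRE (log2 4.48 ± 0.72, adjusted p = 0.000349). *Il12b*, of type 1 immunity, fell (log2 -1.65 ± 0.40, adjusted p = 0.00387, or -2.27 with a sex covariate and -2.32 in male libraries only). Beside both arginine-using enzymes, the arginine transporter gene *Slc7a2* was at 71.5, 78.0 and 72.0 CPM with PBS and 463, 423 and 354 CPM with CRE (log2 2.52 ± 0.15, adjusted p = 1.2e-06), and 14 of 17 arginine and polyamine genes rose. Of 9 chitinase-like and resistin-like genes, 8 rose.

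**Figure D2:**
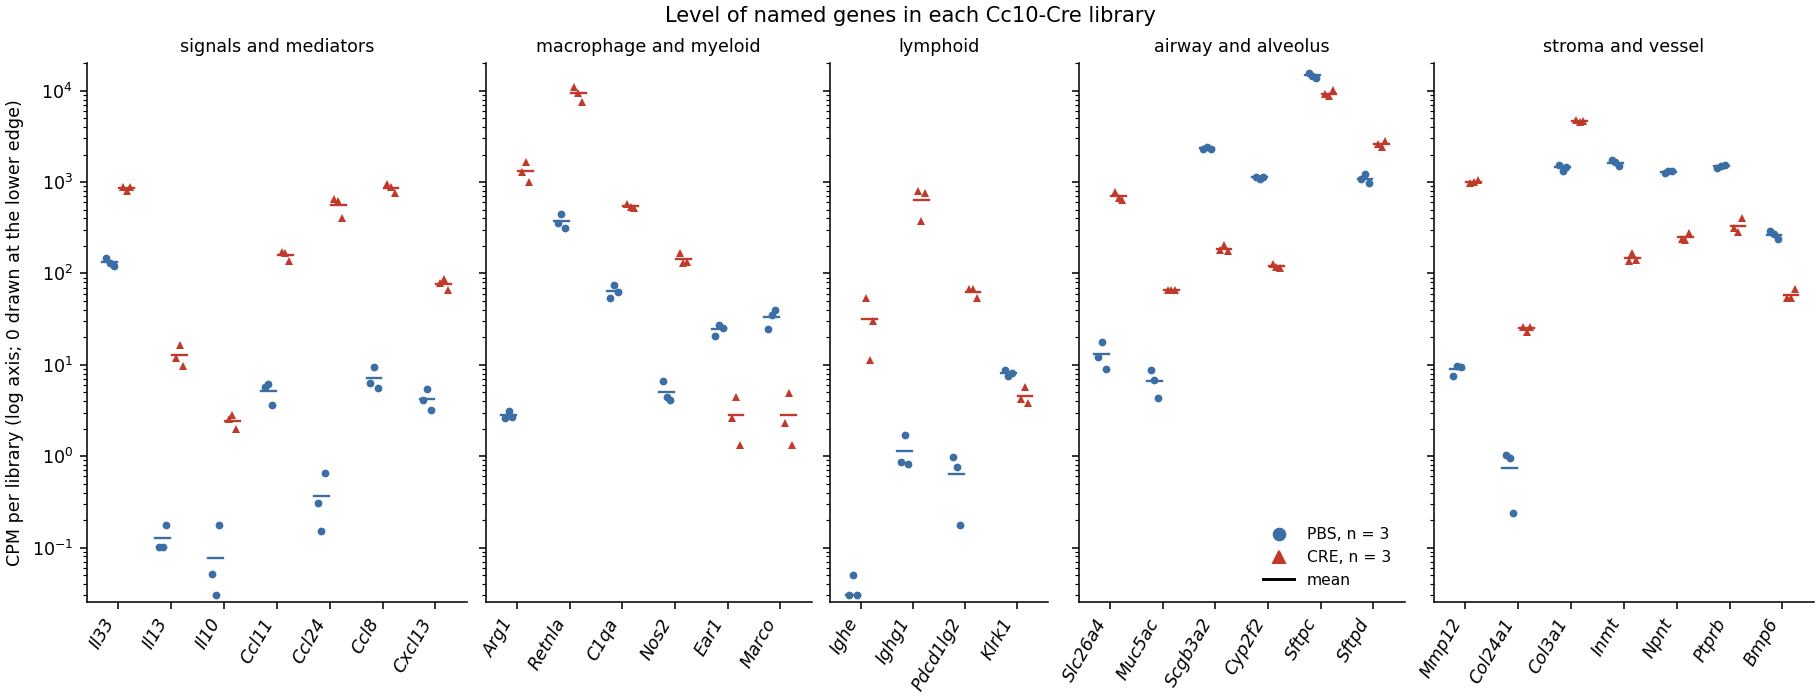
CPM of named genes in each of the 3 PBS libraries (blue circles) and 3 CRE libraries (red triangles) on a log axis, with a bar at each mean. *Ccl24*, *Arg1* and *Ighg1* rise by over 2 powers of 10 from PBS to CRE, *Sftpc* stays within the same power of 10, and *Ighe* has the widest spread among the CRE libraries shown.

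Digestive genes of phagocytes followed. Of 14 cathepsin genes 12 rose and 1 fell (median log2 1.43). *Ctss*, which trims antigens in lysosomes, was at 242, 273 and 236 CPM with PBS and 1708, 1792 and 1599 CPM with CRE (log2 2.80 ± 0.31, adjusted p = 3.72e-05), and *Ctsk*, a collagen-degrading cathepsin, at 45.8, 62.7 and 57.7 CPM with PBS and 329, 293 and 340.0 CPM with CRE (log2 2.57 ± 0.29, adjusted p = 4.53e-05). *Ctsf* was the one that fell (log2 -0.65 ± 0.16), and 2 fell without CRE replicate 3. Of 15 lysosomal and lipid-handling genes 11 rose and none fell. *Spp1*, the osteopontin gene, was at 71.8, 70.8 and 71.2 CPM with PBS and 1561, 1709.7 and 1767 CPM with CRE (log2 4.60 ± 0.83, adjusted p = 0.000664), and *Gpnmb* at 22.9, 23.8 and 26.5 CPM with PBS and 114, 140.1 and 143 CPM with CRE (log2 2.48 ± 0.49, adjusted p = 0.00125). Efferocytosis genes, by which dying cells are taken up, were 3 up and 6 down of 15, shares not far from the background. The uptake receptor gene *Mertk* was at 98.2, 95.2 and 87.6 CPM with PBS and 56.5, 53.3 and 72.2 CPM with CRE (log2 -0.59 ± 0.14, adjusted p = 0.00363).

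Most genes of antigen presentation were higher on both arms. All 10 tested MHC class II genes rose (median log2 1.22), as *Cd74*, the invariant chain, went to 3669.9, 3239 and 2971 CPM from 1293, 1385 and 1252 CPM (log2 1.37 ± 0.23, adjusted p = 0.000428). Of 15 class I presentation genes 13 rose (median log2 0.97), with *H2-K1* at log2 1.24 ± 0.24, a gene with near-identical copies. Dendritic cell markers were mixed, with 8 of 15 up. *Batf3* and *Irf4*, factors of different dendritic cell subsets, rose (log2 3.59 ± 0.35 and 2.03 ± 0.16), as did *Fscn1*, of mature migratory cells (1.51 ± 0.21). *Clec9a*, of the Batf3-dependent subset, was at 40.1, 36.0 and 32.0 CPM with PBS and 19.1, 21.7 and 22.6 CPM with CRE (log2 -0.73 ± 0.14, adjusted p = 0.000913). *Clec9a* overlaps a neighbour on the same strand.

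In the complement list 14 of 21 genes rose (median log2 0.76). *C3* (ENSMUSG00000024164, chromosome 17, 57203970 to 57228136), the central component, was at 1034, 1195 and 934 CPM with PBS and 6116, 5254 and 6058 CPM with CRE (log2 2.50 ± 0.13, adjusted p = 3.78e-07), and it was among the 5 genes with the highest mean CPM over the CRE libraries. *C3ar1*, the receptor of its fragment C3a, rose from 4.55, 8.05 and 7.14 to 65.3, 70.9 and 48.9 CPM, and the regulator *Cfi* rose as well (log2 3.26 ± 0.35 and 3.23 ± 0.22). *Cfd*, the adipocyte-made factor D, fell (log2 -1.68 ± 0.43, or -0.91 in male libraries only and -2.26 without CRE replicate 1). In all 3 fell, and 1 without CRE replicate 2. Interleukin 1 and inflammasome genes rose in 12 of 14 cases, led by brakes on that pathway. The decoy receptor gene *Il1r2* was at 1.69, 1.11 and 1.00 CPM with PBS and 20.8, 16.4 and 11.6 CPM with CRE (log2 3.70 ± 0.64, adjusted p = 0.000518) and the antagonist gene *Il1rn* at 14.2, 12 and 13.2 CPM with PBS and 104, 159.7 and 70.3 CPM with CRE (log2 3.11 ± 0.48, adjusted p = 0.000258), beside *Il1b* itself at 6.34, 6.33 and 7.38 CPM with PBS and 32.2, 59.5 and 29.6 CPM with CRE (log2 2.63 ± 0.44, adjusted p = 0.000409). *Il18* and its receptor gene *Il18r1* fell, *Il18* from 11.9, 11.8 and 11.2 to 2.58, 1.76 and 3.19 CPM (log2 -2.16 ± 0.23 and -1.0 ± 0.10).

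Interferon response genes were higher in 13 of 21 cases, with *Cxcl10* at 3.12, 3.80 and 4.37 CPM with PBS and 22.8, 27.9 and 11 CPM with CRE (log2 2.48 ± 0.49, adjusted p = 0.00116) and *Oas1a* at log2 2.0 ± 0.38. This count rested on single libraries, as 6, 7 and 8 rose without PBS replicate 1, 2 and 3, 7 and 6 without CRE replicate 1 and 2, and 5 with sex as a covariate. Among receptors for microbial products and proteases, 14 of 24 rose and 4 fell. *Clec7a*, the fungal glucan receptor, was at 60.2, 73.2 and 58.8 CPM with PBS and 507, 563 and 427 CPM with CRE (log2 3.00 ± 0.31, adjusted p = 2.51e-05) and *Cd14* at log2 2.53 ± 0.29. *Tlr5*, the flagellin receptor, and *F2rl1*, a protease-activated receptor of epithelium, fell (log2 -1.63 ± 0.24 and -0.58 ± 0.12).

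T cell markers rose in 11 of 15 cases by moderate amounts (median log2 1.34), with *Cd4* at 11.1, 12.9 and 9.62 CPM with PBS and 34.7, 29.4 and 34.9 CPM with CRE (log2 1.60 ± 0.27, adjusted p = 0.000472). Genes of activated and restrained T cells rose as well. Of 14 co-stimulation and checkpoint genes 12 rose and none fell (median log2 2.06). *Pdcd1lg2*, a ligand of the receptor PD-1, was at 0.972, 0.759 and 0.177 CPM with PBS and 67.2, 67.2 and 54.0 CPM with CRE (log2 6.61 ± 0.47, adjusted p = 3.27e-06). *Pdcd1*, that receptor, was at 1.13, 2.18 and 0.590 CPM with PBS and 16.5, 11.6 and 18.1 CPM with CRE (log2 3.58 ± 0.64, adjusted p = 0.00064, or 4.17 without PBS replicate 2), and *Tnfrsf9*, the co-stimulator 4-1BB, at 1.94, 2.88 and 2.66 CPM with PBS and 76.3, 69.6 and 68.2 CPM with CRE (log2 4.87 ± 0.24, adjusted p = 2.31e-07). In all 3 genes the CRE libraries lay far above the PBS libraries, and absence of overlap was a condition for naming them. Of 8 regulatory T cell genes 7 rose, among them *Ctla4* (log2 2.55 ± 0.50) and *Il10*, at 0.0511, 0 and 0.177 CPM with PBS and 2.58, 2.80 and 1.96 CPM with CRE (log2 5.00 ± 0.70, adjusted p = 0.000146, or 6.28 without PBS replicate 3). *Foxp3*, the lineage factor, was at 2.05, 1.72 and 1.89 CPM with PBS and 2.89, 4.56 and 4.38 CPM with CRE (log2 1.10 ± 0.34, adjusted p = 0.0164), and lost its call without PBS replicate 2 (adjusted p = 0.056), without CRE replicate 2 (0.0535), with sex as a covariate (0.113) and in male libraries only (0.113). *Il21*, made by follicular helper cells, rose from at most 0.102 CPM to 2.46, 2.42 and 1.34 CPM (log2 5.65 ± 0.86, adjusted p = 0.000233, or 8.27 without PBS replicate 1).

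Of 9 Th1 and Th17 genes 3 rose and none fell, the rises a share near the background. In limma-voom 5 rose and 2 fell, and 1 fell without PBS replicate 1, CRE replicate 2, CRE replicate 3 or CKO_CRE replicate 2. *Ifng* was at 0.460, 0.506 and 0.118 CPM with PBS and 0.798, 0.660 and 0.464 CPM with CRE and did not pass (adjusted p = 0.232), though it passed in limma-voom (0.0411). *Il17a* was at 0, 0.607 and 0 CPM with PBS and 0.982, 1.10 and 1.85 CPM with CRE (log2 2.65 ± 0.96, adjusted p = 0.032), and lost its call without PBS replicate 1 (adjusted p = 0.10) or 3 (0.098), without CRE replicate 2 (0.0522) or 3 (0.0968), with sex as a covariate (0.118) and in male libraries only (0.172). Its log2 value was 2.07 without PBS replicate 1 and 7.63 without PBS replicate 2. NK and cytotoxic genes had a median of -0.37, with 2 up and 3 down of 11, near the background shares. Without PBS replicate 3 or CRE replicate 2, 1 was up, and without PBS replicate 1 or CRE replicate 3, 1 was down. The NK receptor gene *Klrk1* was at 8.80, 7.49 and 8.09 CPM with PBS and 4.24, 5.72 and 3.86 CPM with CRE (log2 -0.78 ± 0.23, adjusted p = 0.0111).

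Antibody genes rose in every isotype measured, as all 12 tested constant genes were called higher (median log2 3.26). Among them *Ighg3* lost its call in limma-voom (adjusted p = 0.271) and with sex as a covariate (0.0571). *Ighg1* (ENSMUSG00000076614, chromosome 12, 113325240 to 113330523), the constant gene of IgG1, was at 0.870, 1.72 and 0.826 CPM with PBS and 789.9, 372 and 751 CPM with CRE (log2 9.15 ± 1.15, adjusted p = 7.81e-05). *Ighe*, that of IgE, was at 0, 0.0506 and 0 CPM with PBS and 53.5, 11.4 and 30.2 CPM with CRE (log2 10.38 ± 1.59, adjusted p = 0.000246), and came to 11.14 in male libraries only, 12.22 without PBS replicate 2 and 9.78 without CRE replicate 1. CRE replicate 2 was lowest in both. Of 155 tested immunoglobulin variable segments 75.5% were called higher and none lower, and all immunoglobulin genes together took 0.0569% ± 0.00595 of counts with PBS and 0.548% ± 0.113 with CRE (SD, n = 3). Reads of related segments cannot always be told apart, and the authors' handling of them is not given in the sources used here. *Jchain* and *Mzb1*, of antibody-secreting cells, rose (log2 3.08 ± 0.54 and 3.63 ± 0.57, or 2.27 and 3.03 with sex as a covariate). *Pigr*, which carries IgA across epithelium, was at 115, 149 and 86.2 CPM with PBS and 559, 614 and 686 CPM with CRE (log2 2.45 ± 0.25, adjusted p = 2.18e-05).

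**Figure D3:**
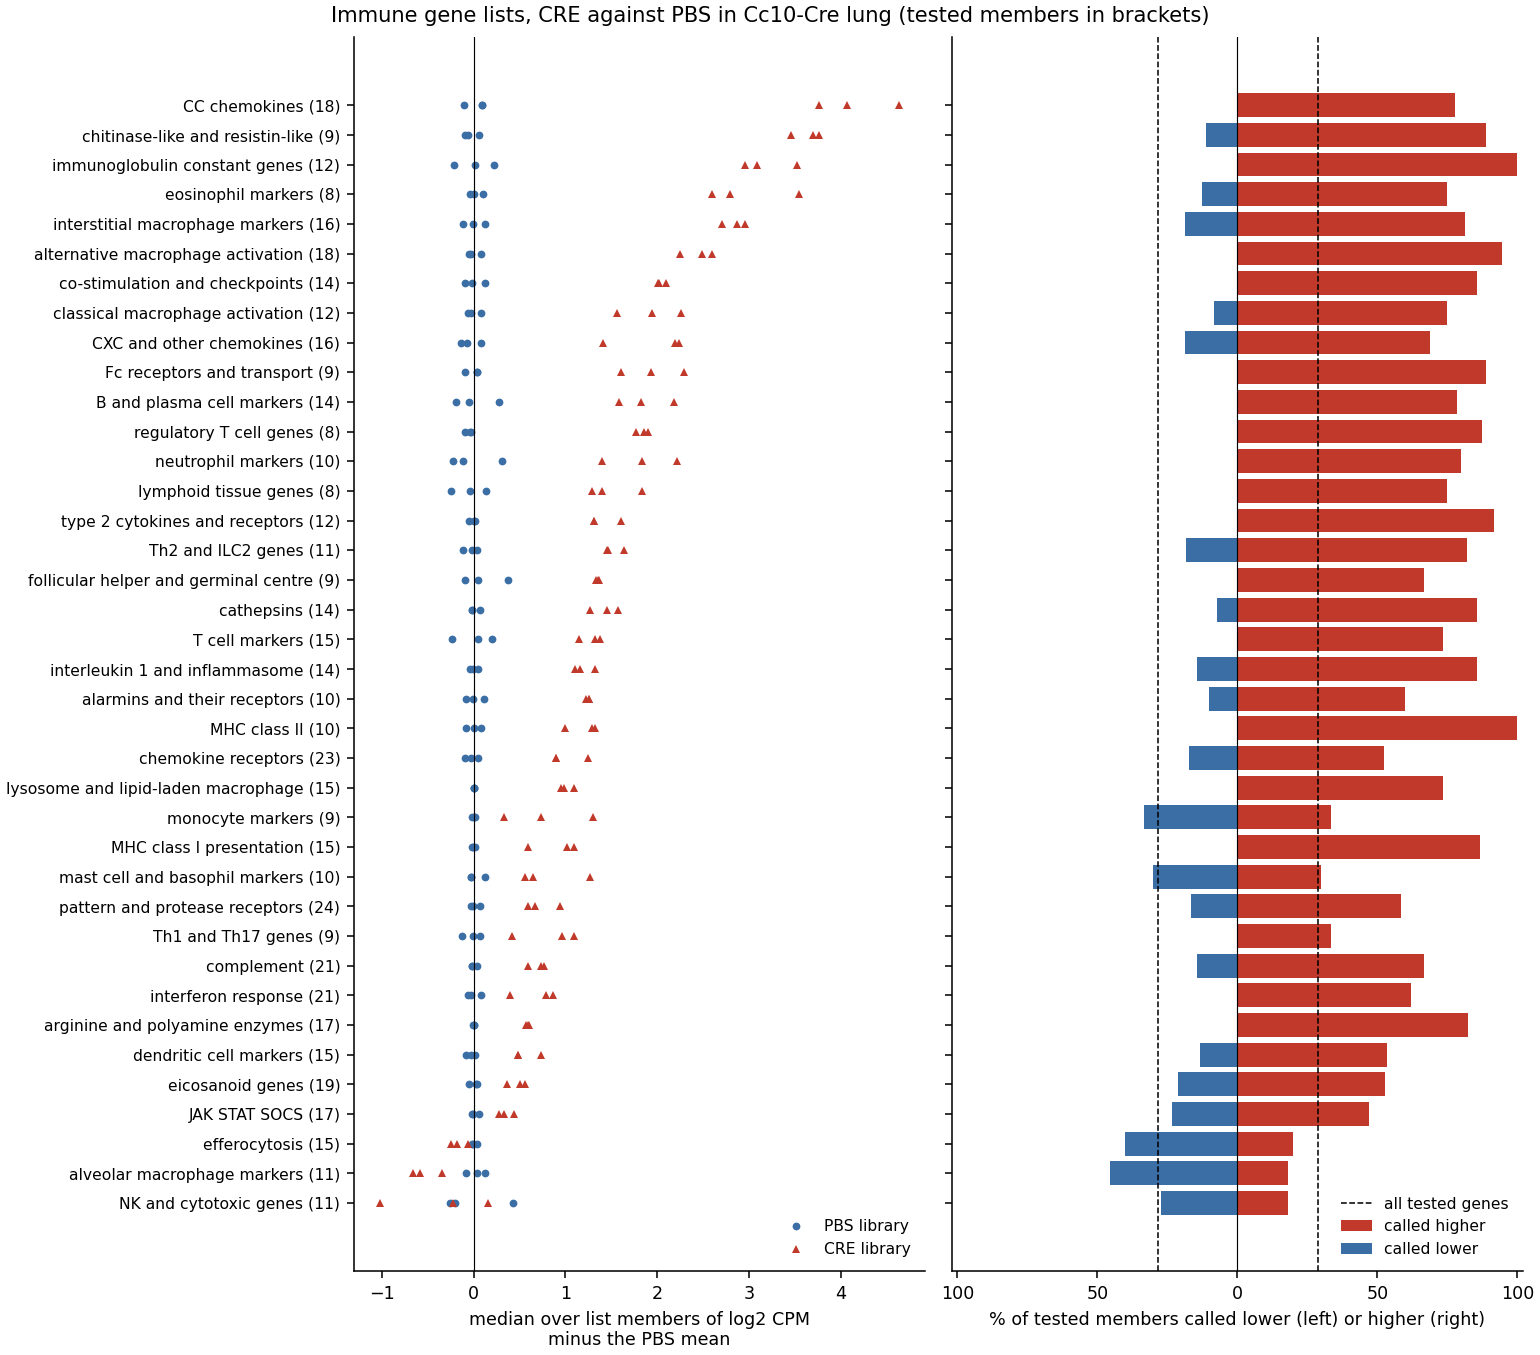
Immune gene lists with at least 5 tested members, in order of their median log2 fold change. The left panel gives each library's median over members of log2 CPM minus the PBS mean, and the right panel the share of members called higher or lower, with dashed lines at 28.6% and 28.4%, the shares of all tested genes. CC chemokines stand at the top (median 4.62) and NK and cytotoxic genes at the bottom (median -0.37), where PBS and CRE libraries overlap.

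In the airway lining, mucus genes rose while genes of club and ciliated cells fell. Of 16 mucus and goblet cell genes 14 rose (median log2 2.31). *Slc26a4* (ENSMUSG00000020651, chromosome 12, 31519827 to 31559969), the anion exchanger pendrin, was at 12.3, 18.0 and 9.09 CPM with PBS and 786, 662 and 640.4 CPM with CRE (log2 5.76 ± 0.30, adjusted p = 3.42e-07). *Muc5ac*, the inducible mucin gene, was at 8.70, 6.73 and 4.37 CPM with PBS and 65.4, 65.7 and 66.6 CPM with CRE (log2 3.35 ± 0.34, adjusted p = 2.51e-05), with 3 nearly identical CRE libraries. *Muc5b*, the resident mucin gene, was at 85.9, 71.1 and 76.0 CPM with PBS and 180.2, 162 and 180.2 CPM with CRE (log2 1.2 ± 0.35, adjusted p = 0.0118), and its adjusted p was 0.0518 with sex as a covariate. *Itln1* and *Retnlb*, secreted by goblet cells, rose from at most 0.236 CPM (log2 6.96 ± 0.49 and 7.74 ± 0.75, or 7.95 and 9.60 without PBS replicate 3). *Muc16* and *Muc20* were the exceptions, called lower, and neither kept its call without PBS replicate 1 (adjusted p = 0.0655 and 0.0633), while 1 of the pair lost it without any 1 other of the 6 libraries compared. Genes for mucin glycosylation and secretion did not move as a group, with a median of 0.02 and 9 up and 5 down of 23. The lower count was 3 without PBS replicate 1 or 3 or CRE replicate 1, and 2 without CRE replicate 2. Within the list, the fucosyltransferase gene *Fut2* was at 0.511, 0.860 and 0.590 CPM with PBS and 6.14, 4.73 and 6.39 CPM with CRE (log2 3.16 ± 0.30, adjusted p = 1.79e-05).

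Among 16 club cell markers 11 fell and 1 rose (median log2 -1.70). *Scgb3a2* (ENSMUSG00000038791, chromosome 18, 43764289 to 43767399), a secretoglobin gene, was at 2286, 2430.4 and 2280.0 CPM with PBS and 179, 204 and 176 CPM with CRE (log2 -3.61 ± 0.30, adjusted p = 8.67e-06). *Scgb1a1*, which encodes Cc10 itself, was at 39.9, 34.8 and 32.5 CPM with PBS and 8.41, 9.79 and 6.28 CPM with CRE (log2 -2.10 ± 0.36, adjusted p = 0.000532). Per length the level of *Scgb1a1* was low for both treatments, at 75.1 RPKM with PBS and 17.1 RPKM with CRE, against 2650.3 RPKM with PBS and 212 RPKM with CRE for *Scgb3a2*. *Reg3g*, an antimicrobial lectin gene on the same list, rose (log2 2.70 ± 0.49, adjusted p = 0.00069). Of 19 cytochrome P450 genes 12 fell and 5 rose, or 3 rose without PBS replicate 2 or without CRE replicate 2. *Cyp2f2*, the xenobiotic oxidase of club cells, was at 1134, 1086 and 1149 CPM with PBS and 128, 118 and 115 CPM with CRE (log2 -3.19 ± 0.27, adjusted p = 8.97e-06). *Cyp7b1*, which turns over oxysterols, was at 3.79, 3.95 and 4.90 CPM with PBS and 29.8, 30.9 and 30.8 CPM with CRE (log2 2.89 ± 0.33, adjusted p = 4.28e-05). The carbonyl reductase gene *Cbr2* was at 3096, 3197 and 3109 CPM with PBS and 629, 638 and 673 CPM with CRE (log2 -2.24 ± 0.19, adjusted p = 9.43e-06).

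Ciliated cell markers fell in 19 of 23 cases and rose in none (median log2 -0.97). The dynein gene *Dnah11* was at 21, 22.4 and 25.2 CPM with PBS and 5.22, 4.12 and 6.08 CPM with CRE (log2 -2.11 ± 0.31, adjusted p = 0.000197). *Foxj1*, the factor of ciliated cells, was at 93.6, 114 and 94.8 CPM with PBS and 51.3, 60.3 and 61.7 CPM with CRE (log2 -0.77 ± 0.25, adjusted p = 0.0195), and lost its call without PBS replicate 2 (adjusted p = 0.0682) or CRE replicate 1 (0.0685). In the ion and water transport list 7 of 15 fell. The sodium channel subunit genes *Scnn1b* and *Scnn1g* were lower, *Scnn1b* at 93.2, 107 and 105 CPM with PBS and 23.8, 29.9 and 22.3 CPM with CRE (log2 -1.97 ± 0.19, adjusted p = 1.93e-05) and *Scnn1g* at log2 -1.70 ± 0.24. *Aqp9*, a glycerol and water channel gene that leukocytes also express, rose (log2 3.24 ± 0.29, adjusted p = 1.28e-05).

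In the alveolus most markers of type 1 cells, which form the thin gas exchange surface, fell. Of 15 type 1 markers 14 fell (median log2 -1.45). *Rtkn2* and *Akap5* were at log2 -2.28 ± 0.24 and -2.30 ± 0.26, and *Ager* was at 1736, 2073 and 2005 CPM with PBS and 961, 1116 and 954 CPM with CRE (log2 -0.91 ± 0.13, adjusted p = 0.000181). *Pdpn*, shared with fibroblasts and macrophages, was the exception that rose (log2 0.51 ± 0.19, adjusted p = 0.0389), and it lost its call without any 1 of the 6 libraries compared (adjusted p = 0.0517 to 0.137). Type 2 markers were 5 lower and 3 higher of 13 (median log2 -0.30), shares not far from the background. The surfactant protein genes split. *Sftpb* and *Sftpc*, of the surface film, fell, *Sftpb* to 2285, 2159 and 2154 CPM from 3984, 3601 and 3846 CPM (log2 -0.76 ± 0.11 and -0.62 ± 0.14). *Sftpa1* and *Sftpd*, the collectins of host defence, rose, *Sftpd* from 1070.4, 1212 and 964 to 2599, 2433 and 2834 CPM (log2 0.57 ± 0.11 and 1.32 ± 0.16). In none of the 4 did the groups overlap, which the rule for naming members of a list partly set in advance. *Lyz2*, a lysozyme gene of type 2 cells and macrophages, fell (log2 -0.84 ± 0.15, adjusted p = 0.00071).

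Genes of transitional epithelial cells rose in 8 of 11 cases. *Cldn4*, a tightening claudin, was at 3.58, 3.80 and 3.72 CPM with PBS and 30.5, 35.9 and 26.1 CPM with CRE (log2 3.09 ± 0.58, adjusted p = 0.000925), and *Lgals3*, which macrophages also make, at log2 2.46 ± 0.37. Basal cell markers were low in every library, with *Trp63* at 0.972, 0.405 and 0.885 CPM with PBS and 3.13, 4.29 and 1.24 CPM with CRE (log2 1.96 ± 0.51, adjusted p = 0.006). Of 6 tested, 4 rose, and 2 without PBS replicate 1. In the tight junction list 16 of 26 fell and 4 rose. *Cldn18*, the main alveolar claudin, was at 786, 884 and 909 CPM with PBS and 377, 424 and 448 CPM with CRE (log2 -1.01 ± 0.12, adjusted p = 4.80e-05), and the scaffold gene *Tjp1* at 445, 457 and 494 CPM with PBS and 185, 179 and 228 CPM with CRE (log2 -1.2 ± 0.17, adjusted p = 0.000179). *Cldn2*, a pore-forming claudin, was at 0.767, 0.607 and 0.413 CPM with PBS and 4.67, 5.28 and 4.22 CPM with CRE (log2 3.00 ± 0.45, adjusted p = 0.000229). Of 15 adherens junction and desmosome genes 9 fell, with *Nectin3* at log2 -1.62 ± 0.18 and *Dsp* at -1.23 ± 0.16, while *Cdh1*, the E-cadherin gene, was at 333, 369 and 373 CPM with PBS and 370.3, 373 and 365 CPM with CRE and did not pass (adjusted p = 0.47). *Rhoa*, floxed in the other genotype and labelled wild type here, was at 494, 474 and 486 CPM with PBS and 509, 534 and 502 CPM with CRE and did not pass (adjusted p = 0.288). In its pathway 7 of 21 genes rose and 10 fell, among them the exchange factor gene *Arhgef12*, at 648, 623 and 611 CPM with PBS and 152, 132 and 204 CPM with CRE (log2 -1.91 ± 0.31, adjusted p = 0.000363), which shares a near-identical stretch with other genes, and the kinase gene *Rock2* (log2 -0.99 ± 0.14).

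Endothelial markers fell in 12 of 16 cases and rose in none (median log2 -0.60). *Ptprb*, a phosphatase of vessel lining, was at 1429, 1496 and 1532 CPM with PBS and 311, 286 and 406 CPM with CRE (log2 -2.11 ± 0.33, adjusted p = 0.000293), and *Pecam1* at 955, 908 and 998 CPM with PBS and 653, 593 and 619.9 CPM with CRE (log2 -0.58 ± 0.12, adjusted p = 0.00153). Leukocyte adhesion genes of vessels rose, 4 of 6, with *Selp* at 3.48, 4.25 and 4.07 CPM with PBS and 13.9, 16.3 and 11.3 CPM with CRE (log2 1.85 ± 0.19, adjusted p = 2.44e-05). The venular chemokine carrier *Ackr1* rose as well (log2 4.25 ± 0.76, or 5.42 without PBS replicate 1), though it overlaps another gene on the same strand. *Thbd*, the anticoagulant thrombomodulin of endothelium, was at 1286, 1412 and 1501 CPM with PBS and 497, 396 and 581 CPM with CRE (log2 -1.47 ± 0.27, adjusted p = 0.000757). In the same coagulation list *F10*, the gene of factor X, was at 9.87, 12.5 and 10.3 CPM with PBS and 118, 157 and 92.7 CPM with CRE (log2 3.52 ± 0.25, adjusted p = 2.91e-06), and the plasminogen activator gene *Plau* at log2 2.72 ± 0.41.

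Collagen genes went both ways, and most markers of resting fibroblasts fell. Of 28 collagen genes 13 rose and 9 fell. The fibrillar collagen gene *Col3a1* was at 1553, 1327 and 1459.8 CPM with PBS and 4745, 4529 and 4695 CPM with CRE (log2 1.72 ± 0.13, adjusted p = 4.48e-06) and *Col1a1* at 598, 618 and 612 CPM with PBS and 2027, 1925 and 1703 CPM with CRE (log2 1.67 ± 0.11, adjusted p = 2.56e-06). *Col24a1*, a minor fibrillar collagen gene, was at 1.02, 0.962 and 0.236 CPM with PBS and 26.2, 22.8 and 25.8 CPM with CRE (log2 5.07 ± 0.45, adjusted p = 1.27e-05). The basement membrane genes *Col4a3* and *Col4a5* fell (log2 -2.59 ± 0.32 and -2.16 ± 0.28). Resting fibroblast markers fell in 7 of 10 cases. *Inmt* (ENSMUSG00000003477, chromosome 6, 55170626 to 55175043), a methyltransferase gene of lung fibroblasts, was at 1726, 1661 and 1482 CPM with PBS and 136, 167 and 140.3 CPM with CRE (log2 -3.42 ± 0.32, adjusted p = 1.53e-05), and *Npnt* at 1263, 1313 and 1313 CPM with PBS and 238, 232 and 279 CPM with CRE (log2 -2.34 ± 0.31, adjusted p = 0.000106). Of 19 matrix remodelling genes 12 rose and none fell, including the hyaluronan synthase gene *Has2* (log2 3.63 ± 0.59).

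Of 16 metalloproteinases and inhibitors 9 rose and 5 fell. *Mmp12*, the macrophage elastase, was at 7.47, 9.82 and 9.44 CPM with PBS and 987, 1011 and 1041 CPM with CRE (log2 6.87 ± 0.78, adjusted p = 4.35e-05). *Mmp13*, a collagenase gene, was at 0.870, 1.47 and 0.944 CPM with PBS and 109, 137 and 107 CPM with CRE (log2 6.77 ± 1.31, adjusted p = 0.00106, or 5.99 with a sex covariate). Among those that fell, *Mmp28* was at 33.3, 36.6 and 47.6 CPM with PBS and 14.1, 7.86 and 15.0 CPM with CRE (log2 -1.63 ± 0.34, adjusted p = 0.00182) and *Mmp15* at log2 -0.82 ± 0.12. The inhibitors *Timp1* and *Timp3* went opposite ways, with *Timp1* at 11.9, 9.52 and 9.62 CPM with PBS and 413, 509 and 215 CPM with CRE (log2 5.23 ± 0.59, adjusted p = 4.4e-05) and *Timp3* at 666, 764 and 842 CPM with PBS and 182, 176 and 282 CPM with CRE (log2 -1.79 ± 0.30, adjusted p = 0.000414). In the TGF-beta and BMP list 15 of 25 fell and 6 rose, or 3 rose without PBS replicate 1. The ligand genes *Inhba* and *Tgfb1* rose, *Inhba* at 4.55, 4.10 and 3.01 CPM with PBS and 58.4, 75.6 and 54.0 CPM with CRE (log2 4.04 ± 0.48, adjusted p = 5.22e-05) and *Tgfb1* at log2 1.26 ± 0.16. A BMP ligand gene and a BMP receptor gene fell, the ligand *Bmp6* at 292, 272 and 236 CPM with PBS and 53.8, 53.2 and 68.0 CPM with CRE (log2 -2.15 ± 0.26, adjusted p = 6.86e-05) and the receptor *Bmpr2* at 1005, 957 and 996 CPM with PBS and 274, 247 and 341 CPM with CRE (log2 -1.74 ± 0.26, adjusted p = 0.000212). Smooth muscle and pericyte genes were 3 up and 5 down of 15, shares near the background. The count of falls was 3 without PBS replicate 1, CRE replicate 1 or CRE replicate 2 and 2 with sex as a covariate. In limma-voom 7 were up. Among those up, *Acta2*, the smooth muscle actin gene, was at 191, 167 and 170.0 CPM with PBS and 375, 398 and 349 CPM with CRE (log2 1.12 ± 0.14, adjusted p = 6.46e-05). Among those down, *Pdgfrb* was at log2 -0.51 (adjusted p = 0.00812), and it lost its call with sex as a covariate (0.0636). Of 14 receptors of airway nerves and muscle 9 fell, with the muscarinic receptor gene *Chrm2* at log2 -1.68 ± 0.29.

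Markers of further cell types in or beside the tissue were read as well. Cardiac muscle genes, known from pulmonary veins, fell in 11 of 13 cases and summed to 349 to 527 CPM with PBS and 212 to 230.3 CPM with CRE. Adipocyte markers fell in 5 of 6 cases, or 3 without CRE replicate 3, and summed to 32.6 to 56.0 CPM with PBS and 8.24 to 18.0 CPM with CRE. Mesothelial markers summed to 204 to 229.9 CPM with PBS and 112 to 158 CPM with CRE, with 2 of 5 lower and a median log2 of -0.14. Red cell and platelet markers summed to 196 to 391 CPM with PBS and 245 to 1294 CPM with CRE, with *Gp1bb* at 0 in all 6 libraries. These sums overlapped between the groups. Of 11 tested, 3 were higher, a share near the background, and 1 was lower. The count of rises was 1 without PBS replicate 2, CRE replicate 1 or CRE replicate 2 and 6 without CRE replicate 3. None fell without PBS replicate 1 or 2 or CRE replicate 2 or 3. Their part in the other results was not tested.

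**Figure D4:**
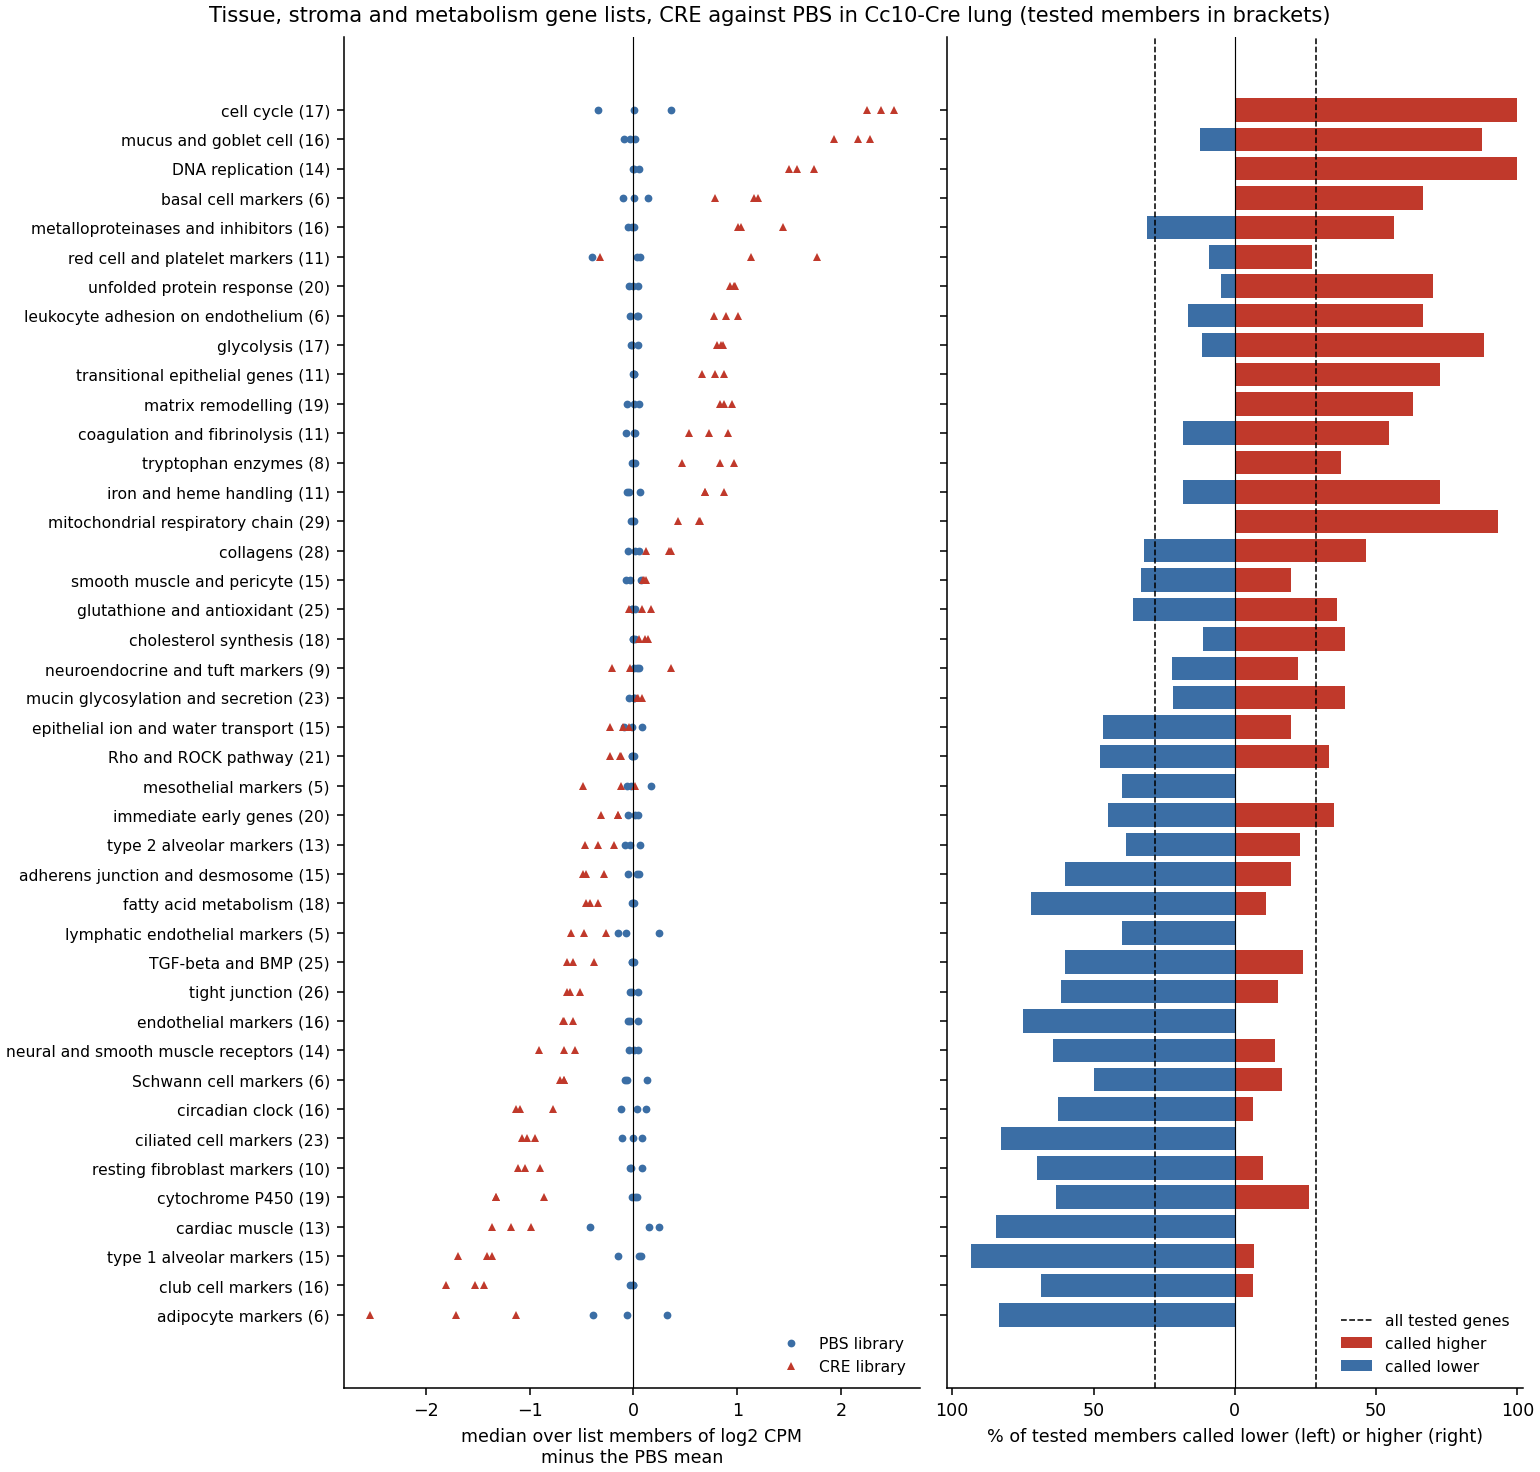
Tissue, stroma and metabolism lists with at least 5 tested members, drawn as for the immune lists. Cell cycle genes stand at the top (median 2.43), with every tested member called higher, and adipocyte markers at the bottom (median -1.93), where the 3 CRE libraries are spread apart.

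All 17 cell cycle genes and all 14 DNA replication genes tested were higher (median log2 2.43 and 1.64). *Mki67*, the proliferation marker, was at 30.5, 40.0 and 51.0 CPM with PBS and 175, 158 and 167 CPM with CRE (log2 2.08 ± 0.19, adjusted p = 1.53e-05). *Cdk1*, the mitotic kinase, was at 5.06, 5.87 and 9.39 CPM with PBS and 52.9, 53.3 and 41.2 CPM with CRE (log2 2.90 ± 0.37, adjusted p = 8.75e-05), and *Ube2c*, of the anaphase-promoting complex, at 3.68, 4.0 and 6.85 CPM with PBS and 45.1, 45.1 and 34.5 CPM with CRE (log2 3.14 ± 0.37, adjusted p = 5.01e-05). *Rrm2*, which supplies nucleotides for replication, was at log2 2.65 ± 0.28. PBS replicate 3 was the highest PBS library for *Mki67*, *Cdk1*, *Ube2c* and *Rrm2*, but none of the groups overlapped. For *Cdk1*, *Ube2c* and *Rrm2* the rule for naming members of a list set this in advance. Promoter windows of *Cdk1* (chr10:69352863-69353162 on the reverse strand), *Ube2c* (chr2:164769679-164769978 on the forward strand) and *Mki67* (chr7:135716330-135716629 on the reverse strand) are shown because cell cycle genes rose together and these windows hold the letters of the cell cycle homology region (CHR), TTTGAA, sought on both strands. Capitals mark the matches, read on the other strand in *Ube2c*, whose first bases are at -71 and -15, at -29, and at -116 and -98 from the start.
Cdk1: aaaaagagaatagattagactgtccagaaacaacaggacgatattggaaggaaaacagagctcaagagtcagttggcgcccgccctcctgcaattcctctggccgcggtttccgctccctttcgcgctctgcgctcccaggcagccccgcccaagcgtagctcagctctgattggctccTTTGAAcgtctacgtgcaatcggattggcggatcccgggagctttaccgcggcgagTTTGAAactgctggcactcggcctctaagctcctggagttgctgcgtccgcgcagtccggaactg
Ube2c: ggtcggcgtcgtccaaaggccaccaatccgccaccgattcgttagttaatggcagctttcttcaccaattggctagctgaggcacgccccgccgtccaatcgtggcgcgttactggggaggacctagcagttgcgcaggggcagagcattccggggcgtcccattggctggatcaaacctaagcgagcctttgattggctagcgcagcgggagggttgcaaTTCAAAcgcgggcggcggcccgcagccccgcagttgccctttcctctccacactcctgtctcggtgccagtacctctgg
Mki67: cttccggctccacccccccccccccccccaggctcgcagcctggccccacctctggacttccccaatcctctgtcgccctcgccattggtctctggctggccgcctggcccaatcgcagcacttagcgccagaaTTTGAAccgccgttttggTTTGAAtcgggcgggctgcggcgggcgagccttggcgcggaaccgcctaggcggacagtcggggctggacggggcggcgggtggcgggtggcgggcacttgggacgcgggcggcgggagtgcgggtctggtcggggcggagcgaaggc
These letters were in 11 of 14 windows of cell cycle genes (78.6%) and in 2 of 12 of DNA replication genes (16.7%), against 15.1% of the windows of tested genes. They were also in 5 of 11 windows of alternative activation genes (45.5%) and 4 of 9 among the 12 largest rises (44.4%). Shares were 28.6% of 14 windows of CC chemokine genes and 15.8% of 19 of ciliated cell markers. The letters CCAAT were in 13 of 14 windows of cell cycle genes (92.9%) and 8 of 12 of DNA replication genes (66.7%), against 41.9%. They were in 6 of 9 among the largest rises (66.7%), and in 26.3% to 36.4% of windows of the other lists searched. Matches of the searched motifs can overlap each other.

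Most genes of the respiratory chain, of the ribosome and of glycolysis rose. Of 29 nuclear genes of the respiratory chain 27 rose by small amounts (median log2 0.61), with *Cox5a* at 23.4, 26.5 and 22.7 CPM with PBS and 66.0, 64.1 and 51.6 CPM with CRE (log2 1.36 ± 0.19, adjusted p = 0.000136). The mitochondrially encoded *mt-Co1* was at 6035, 6006 and 5725 CPM with PBS and 6083, 5344 and 5626 CPM with CRE and did not pass (adjusted p = 0.88). Of 82 tested ribosomal protein genes 72 rose and none fell (median log2 0.70), and their counts share near-identical pseudogenes. Glycolysis genes rose in 15 of 17 cases, with the leukocyte hexokinase gene *Hk3* at 5.47, 5.26 and 6.14 CPM with PBS and 74.0, 74.5 and 61.3 CPM with CRE (log2 3.67 ± 0.33, adjusted p = 1.35e-05) and *Gapdh*, often used as a reference gene, at 344, 353 and 339 CPM with PBS and 994, 981 and 814 CPM with CRE (log2 1.46 ± 0.20, adjusted p = 0.000136). *Gapdh* has near-identical pseudogenes. Fatty acid metabolism genes fell in 13 of 18 cases, or 8 with sex as a covariate, and the count of rises moved from 2 to 1 without PBS replicate 2 or 3 or CRE replicate 1. This list held the carnitine transferase gene *Cpt1a* at 194, 181 and 203 CPM with PBS and 94.7, 76.8 and 90.8 CPM with CRE (log2 -1.10 ± 0.12, adjusted p = 2.89e-05). In cholesterol synthesis 7 of 18 rose, with *Mvd* at log2 1.39 ± 0.10.

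Genes of the unfolded protein response rose in 14 of 20 cases, with *Derl3*, of secretory cells, at 2.20, 2.58 and 1.95 CPM with PBS and 14.6, 15.2 and 12.4 CPM with CRE (log2 2.68 ± 0.30, adjusted p = 3.69e-05). Glutathione and antioxidant genes went both ways, 9 up and 9 down of 25, shares not far from the background. The cystine transporter gene *Slc7a11* and the glutathione synthesis gene *Gclc* rose, *Slc7a11* at 3.73, 3.69 and 5.08 CPM with PBS and 56.1, 51.4 and 49.1 CPM with CRE (log2 3.69 ± 0.40, adjusted p = 3.46e-05) and *Gclc* at log2 1.36 ± 0.12. The glutathione transferase gene *Gsta3* was at 124, 132 and 130.3 CPM with PBS and 12.8, 12.3 and 9.74 CPM with CRE (log2 -3.44 ± 0.34, adjusted p = 1.93e-05), and the catalase gene *Cat* at 322, 314 and 323 CPM with PBS and 101, 95.1 and 116 CPM with CRE (log2 -1.58 ± 0.15, adjusted p = 1.52e-05). Iron and heme genes rose in 8 of 11 cases, with the siderophore binder *Lcn2* at 167, 268 and 154 CPM with PBS and 1306, 1232 and 1239.9 CPM with CRE (log2 2.72 ± 0.31, adjusted p = 4.42e-05) and heme oxygenase *Hmox1* at log2 2.23 ± 0.27. In the eicosanoid list *Hpgd*, which inactivates prostaglandins, was at 532, 489 and 509 CPM with PBS and 141, 209 and 151 CPM with CRE (log2 -1.58 ± 0.25, adjusted p = 0.000271), and the thromboxane synthase gene *Tbxas1* rose (log2 2.05 ± 0.22).

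Clock genes fell in 10 of 16 cases and 1 rose. *Per1* was at 181, 209.7 and 197 CPM with PBS and 73.9, 38.0 and 63.8 CPM with CRE (log2 -1.70 ± 0.37, adjusted p = 0.00217) and *Nr1d1* at 184, 196 and 193 CPM with PBS and 70.8, 54.9 and 67.9 CPM with CRE (log2 -1.53 ± 0.17, adjusted p = 3.64e-05), while *Nfil3*, which immune cells also use, rose (log2 1.98 ± 0.25). Immediate early genes split, 7 up and 9 down of 20, with *Egr2* at log2 2.92 ± 0.36 and *Dusp1* at -1.67 ± 0.39.

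The direction of change moved with gene length. Among protein-coding genes in 5 equal groups by exonic length, the shortest group (204 to 2403 bases, 2993 genes) had 43.0% higher and 15.6% lower and a median log2 fold change of 0.35. The longest group (7487 to 123179 bases, 2991 genes) had 14.1% higher and 53.1% lower and a median of -0.38. The groups between stood in order, at 0.15, 0.01 and -0.13. Each CRE library showed it, with medians of 0.33, 0.40 and 0.21 in the shortest group and -0.45, -0.44 and -0.36 in the longest, while PBS libraries stayed within 0.02 of 0. The Cc10-Cre;Rhoafl/fl response, which shares no library, had medians of 0.27 and -0.27. Of the genes named above, *Dnah11*, *Ptprb*, *Bmpr2* and *Arhgef12*, which fell, are in the longest group, and *Cox5a*, which rose, is in the shortest. The part of length in the results for the lists was not tested. By biotype, 60.6% of protein-coding genes were called, 40.4% of lincRNAs and 27.0% of processed pseudogenes. By level, the share called was 31.2% in the lowest of 5 equal groups by mean CPM and 73.3% in the highest.

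**Figure D5:**
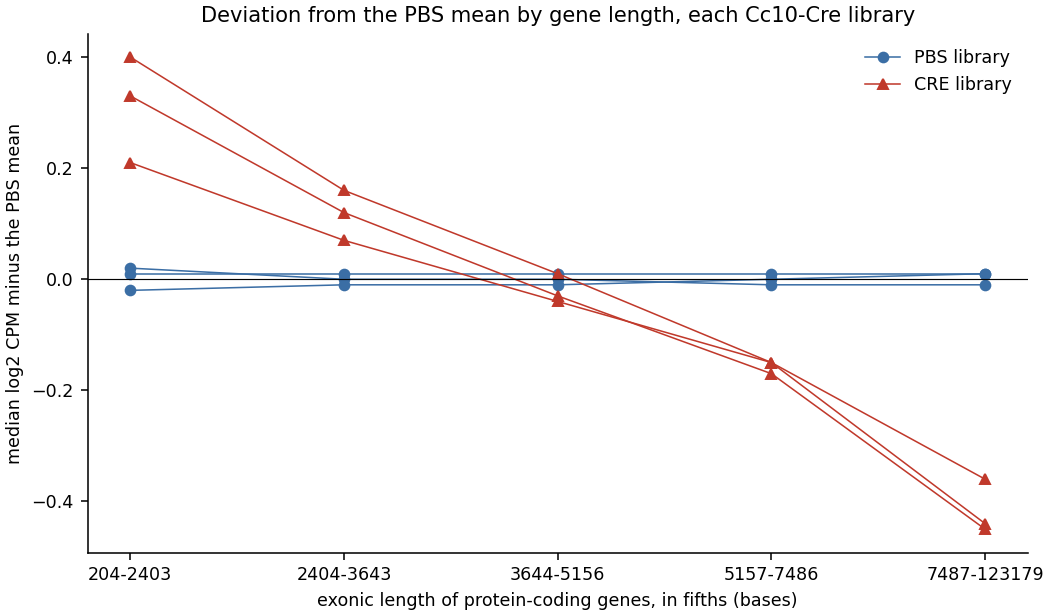
Median over protein-coding genes of log2 CPM minus the PBS mean, for 5 equal groups by exonic length (in bases), with 1 line for each of the 3 PBS libraries (blue circles) and 3 CRE libraries (red triangles). The CRE lines run from 0.21 to 0.40 in the shortest group to between -0.45 and -0.36 in the longest, and the PBS lines stay within 0.02 of 0.

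*Cyp4b1*, *Hba-a1* and *Krt79* are given here because they were among the least or most variable list members over the CRE libraries. *Cyp4b1*, a P450 gene, was at 115, 115 and 115 CPM in them, from 465, 475 and 513 CPM with PBS (log2 -2.04 ± 0.25, adjusted p = 6.83e-05), and *Chil1*, a chitinase-like gene given for its large CPM difference, at 3192, 3185 and 3116 CPM, from 911, 1083 and 777 CPM (log2 1.81 ± 0.22, adjusted p = 5.72e-05). Among the most variable, the globin gene *Hba-a1* was at 63.9, 49.6 and 88.5 CPM with PBS and 361, 164 and 43.9 CPM with CRE (log2 1.53 ± 0.61, adjusted p = 0.0489). Its call was lost without CRE replicate 1 (adjusted p = 0.359) or 2 (0.0704) and without PBS replicate 1 (0.117), 2 (0.144) or 3 (0.0653), its log2 value was 0.63 without CRE replicate 1 and 2.48 in male libraries only, and the CRE order of replicates 1, 2 and 3 was also that of all globin genes together, at 0.118%, 0.0593% and 0.0178% of counts. The keratin gene *Krt79* was at 31.0, 29.8 and 28.4 CPM with PBS and 4.11, 9.46 and 1.85 CPM with CRE (log2 -2.51 ± 0.46, adjusted p = 0.00074), or -3.28 without CRE replicate 2. Component 2, with 6.19% of the variance, set CRE replicates 2 and 3 apart, at 35.9 and -31.5, with replicate 1 at -7.53, and both of these were female.

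The count of responses that differed from those of Cc10-Cre;Rhoafl/fl lung depended on the test and on single libraries. The test of the difference called 8 of 17473 genes (0.0458%), 2 with a higher change in Cc10-Cre lung and 6 with a lower one, and 1802 genes had an unadjusted p below 0.05. *Tdo2*, a tryptophan-degrading enzyme gene, was at 1.94, 1.67 and 2.95 CPM with PBS and 28.6, 27.3 and 22.9 CPM with CRE and rose by log2 3.63 here against 1.29 there (adjusted p of the difference = 0.0459). *Rbpj*, a factor of Notch signalling, changed by log2 0.59 here and -0.63 there (adjusted p = 0.0245), and *Fpr1*, a neutrophil and monocyte receptor gene, by -3.83 and -0.84 (0.0459). The 8 genes were read from the test and not from the rule for named genes. The count was 0 without any 1 of PBS replicates 1 and 2, CRE replicates 1 and 3, CKO_PBS replicates 1 and 2 and CKO_CRE replicate 3, was 1 without PBS replicate 3 or CKO_PBS replicate 3, 4 without CRE replicate 2, 24 without CKO_CRE replicate 1 and 2660 without CKO_CRE replicate 2. It was 81 with no low-count filter, 128 with DESeq2, 4367 with limma-voom, 2 with sex as a covariate and 0 with the replicate block. List medians of the 2 genotypes, given side by side, were 1.82 and -0.00 for neutrophil markers, 0.74 and 2.11 for interferon response genes and -1.70 and -1.04 for club cell markers, and no list difference was tested.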

How the data were processed

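Poly(A) RNA of whole mouse lung was sequenced in 12 libraries, 3 in each of 4 groups. The deposited table holds raw counts per gene made by the authors, who used fastp, STAR and the mm10 genome per the submitters' processing notes. Sources used here do not name the counting tool, its strand setting or its treatment of reads with several matches. Of 54532 gene identifiers 54409 matched GENCODE M21, and the others held at most 0.0417% of a library.

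Counts were fitted with edgeR 4.0.16 (R 4.3.3) by its quasi-likelihood F test, with TMM factors, the filterByExpr filter and all 12 libraries, which share the estimate of the spread (common biological variation 17.4%). The contrasts were CRE minus PBS in Cc10-Cre lung and its difference from the same contrast in Cc10-Cre;Rhoafl/fl lung, with Benjamini-Hochberg adjustment over 17473 genes and a threshold of 0.05. A log2 fold change is followed by its standard error. RPKM divides CPM by exonic length. Library totals of 16250674 to 21559210 set the precision, and floors of 3 counts cover counting error only. On simulated data with 200 changed genes of 17473, 8.5% were recovered at 1.5-fold, 59.5% at 2-fold and 88.5% at 4-fold. False calls made up 10.5%, 4.03% and 3.8% of the calls. The real contrast called far more genes, and the adjustment is stricter when few genes change. These rates therefore do not carry over to it.

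Named genes were the 12 largest rises and 12 largest falls, and up to 3 members each way of 81 lists. All of these had to be called, without overlap between groups, and at 1 CPM or more in the higher group. Absence of overlap in them was thus set by the rule. Added to them were the 5 largest CPM differences each way and highest levels. The 5 least and 5 most variable list members and a set of genes listed by name were also taken. Members and lists were chosen with earlier results of these data known. Alternatives were DESeq2 1.42.0, DESeq2 size factors, limma-voom (limma 3.58.1), no filter, only the 6 Cc10-Cre libraries, a replicate block, sex as a covariate, male libraries, a test against a 2-fold change and leaving out each library.

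Of 373 named genes, 23 share a stretch of at least 200 bases at 98% identity with another gene (blastn 2.17.0), among those in the text *Bex2*, *H2-K1*, *Arhgef12*, *Gapdh*, *Cbr2*, *mt-Co1*, *Rhoa*, *Mki67* and *Hba-a1*. Exons of 19 overlap another gene on the same strand, in the text *Ackr1*, *Cd74*, *Clec9a*, *Col3a1*, *Ear1*, *Foxp3*, *Ifng*, *Mzb1* and *Spp1*. Exons of 74 overlap one on the opposite strand, so these values are uncertain: in the text *Ace*, *Ackr4*, *Arhgef12*, *Bmp6*, *Chrm2*, *Col4a3*, *Cox5a*, *Cxcl10*, *Cyp2f2*, *Dnah11*, *Dsp*, *Dusp1*, *Foxp3*, *Gapdh*, *Has2*, *Hk3*, *Il1b*, *Il21*, *Il4ra*, *Il5*, *Mmp12*, *Mmp28*, *Nr1d1*, *Phox2a*, *Rhoa*, *Rtkn2*, *Selp*, *Slc7a2*, *Stat6*, *Tbxas1*, *Timp3*, *Ube2c* and *mt-Co1*. Promoter windows come from RefSeq (GRCm38.p6), of which *Arg1*, *Clec10a*, *Ccl24*, *Tgm2*, *Socs2*, *Slc7a2* and *Fn1* have none here. Some genes are not reported here.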

Additional observations from a re-analysis of the deposited data

Results flagged for a closer look

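*Tdo2*, which encodes tryptophan 2,3-dioxygenase, is listed because its response to CRE differed between the genotypes in a test of the difference itself. It was at 1.94, 1.67 and 2.95 CPM with PBS and 28.6, 27.3 and 22.9 CPM with CRE in Cc10-Cre lung (log2 3.63 ± 0.23, adjusted p = 1.64e-06), and its log2 change was 1.29 in Cc10-Cre;Rhoafl/fl lung. The difference was 2.34 ± 0.32 (SE, edgeR quasi-likelihood test, adjusted p = 0.0459). The call was lost with the replicate block (adjusted p = 0.121), with sex as a covariate (0.0615), and without WT_PBS replicate 1 (0.132) or 2 (0.221), CKO_PBS replicate 1 (0.105), 2 (0.0736) or 3 (0.163), WT_CRE replicate 1 (0.125), 2 (0.0834) or 3 (0.0900), or CKO_CRE replicate 3 (0.0998).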

How the results depend on the processing

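The count of 9959 genes called for the CRE effect lay between 8529 and 10869 when 1 library was left out, and between 7933 (sex as a covariate) and 12077 (limma-voom) under the other alternatives at the same threshold. A test against a 2-fold change called 1563 genes, 997 higher and 566 lower, where 3982 were called and had a fitted change of at least 2-fold. The 8 genes whose response differed between genotypes became 81 with no low-count filter, 128 with DESeq2, 4367 with limma-voom, 2 with sex as a covariate, and 0 to 2660 when 1 library was left out. With the replicate block the counts were 9921 for the CRE effect and 0 for the difference. Samples with the same replicate number did not deviate together (r of 0.00446, 0.019 and 0.00836 across genes), so the numbers were not taken as a pairing. The test against a 2-fold change was not read for named genes. Of 373 named genes 323 kept direction and side of the threshold under every other alternative run and 50 did not under at least 1. Sex as a covariate took the call from 33. Losses of a call in male libraries rest on CRE replicate 1 alone. The mt-Co1 log2 change (-0.02) turned with limma-voom (0.035), in male libraries (0.092) and when 1 library was left out (-0.081 to 0.038, the latter without WT_CRE replicate 2), and the Tslp log2 change turned in male libraries (0.015), none past the threshold; the cause was not tested.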
